A study of Rattus norvegicus with 28 samples.

Results

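Lysosomal hydrolases, cathepsins and subunits of the vacuolar proton pump were followed in rat gastrocnemius over 3 durations of neuromuscular blockade with mechanical ventilation. The members were the probe sets whose gene symbol starts with Atp6v, is Cts followed by a letter, or is among 18 further lysosomal names. It found 58 of 26208 probe sets, for 52 of 19505 named genes. By role these were 13 probe sets of cysteine cathepsins, 5 of aspartic and serine cathepsins, 2 of other peptidases, 5 of glycosidases, 3 of lipid handling proteins, 7 of membrane proteins, 14 of the V1 sector of the pump and 9 of its V0 sector. Gaa and Npc1, which are among the 18 names, were not analysed here.

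Affymetrix Rat Gene ST arrays measured RNA of 28 female Sprague-Dawley rats in the proximal part of the muscle, to follow how gene expression changes with time in a rat model of intensive care. The 5 sham-operated controls were instrumented under isoflurane, breathed on their own, received infusions and were killed within 2 hours, without the blocker. The 23 experimental rats were anaesthetised, paralysed by continuous infusion of α-cobrotoxin, a snake toxin that occupies muscle acetylcholine receptors, and ventilated for 0.25-4d (6 h to 4 days, n = 13), 5-8d (n = 4) or 9-14d (n = 6). No genotype was altered in any group, and the animals were young adults. Blockade, ventilation, sedation and time under the intervention went together in these rats, so their shares cannot be told apart. The source descriptions of the controls also mention the blocker and ventilation, which goes against their sample type, and the sample type was followed.

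The values are log2 changes against the controls with p-values adjusted over all probe sets, as deposited. The standard error (SE, written after ±) and the comparisons between durations were computed from the within-group SD that these values fix. A gene is said to have risen or fallen at an adjusted p below 0.05, and to be up- or down-regulated if it also changed at least 2-fold. Expression levels and single rats were not analysed here, so the tissue could not be checked against marker levels and no value per rat is shown. In whole muscle, a change in RNA per cell and a change in the share of a cell type cannot be told apart. The within-group SD of the 58 probe sets had a median of 0.22 log2 units, against 0.203 over all probe sets, and ran from 0.126 for Ctsg to 0.95 for Gpnmb.

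Lysosomes are the acid compartment in which cells break down material from endocytosis and autophagy. Cathepsins cut proteins, glycosidases and lipid handling proteins take apart sugars and lipids, and the membrane proteins shield the lysosomal wall and carry ions and products across it. The vacuolar proton pump acidifies the lumen: its V1 sector splits ATP in the cytosol and its V0 sector carries protons through the membrane. In skeletal muscle, autophagy and lysosomal proteolysis take part in protein loss during atrophy, beside the ubiquitin-proteasome system.

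The lysosomal genes rose mostly from 5-8d on, and few of them rose in the first days. At 0.25-4d, 5 of 58 probe sets rose, which is 8.62%, against 1.49% of all probe sets. None fell, against 2.06%. Of these 5, 2 were up-regulated, against 0.305% of all probe sets, and none was down-regulated, against 0.244%. At 5-8d, 19 rose, or 32.8% of the members against 14.9% of all, and 6 were up-regulated, or 10.3% against 2.55%. At 9-14d, 25 rose, or 43.1% against 17.3%, and again 6 were up-regulated, against 3.01%. Falls took no more than the background share. At 5-8d 6 probe sets fell, or 10.3% against 11.4% of all, and at 9-14d 3 fell, or 5.17% against 18.2%. No member was down-regulated at either duration, against 2.66% and 2.12% of all probe sets. The median log2 change of the members was 0.06, 0.11 and 0.29 at the 3 durations, where that of all probe sets was -0.01, -0.04 and -0.07. The 3 comparisons share the 5 control rats.

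Some probe sets carry a member's symbol but mostly read another gene. In 6 of the 58, fewer than 50% of the probes match a transcript of the member. The set of Ctsa and Pltp with number 10851670 has 1 of 32 probes on Ctsa, that of Cd63 and Rdh5 (10899951) 1 of 27 on Cd63, and that of Atp6v1h and Rgs20 (10867389) 4 of 29 on Atp6v1h. The other sets were 10793661 (3 of 26 on Ctsq), 10793641 (13 of 29 on Ctsr) and 10761639 (21 of 48 on Atp6v0a2). Without them 52 probe sets of 51 genes are left, of which 5, 18 and 22 rose at the 3 durations and 0, 5 and 3 fell.

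**Figure D1:**
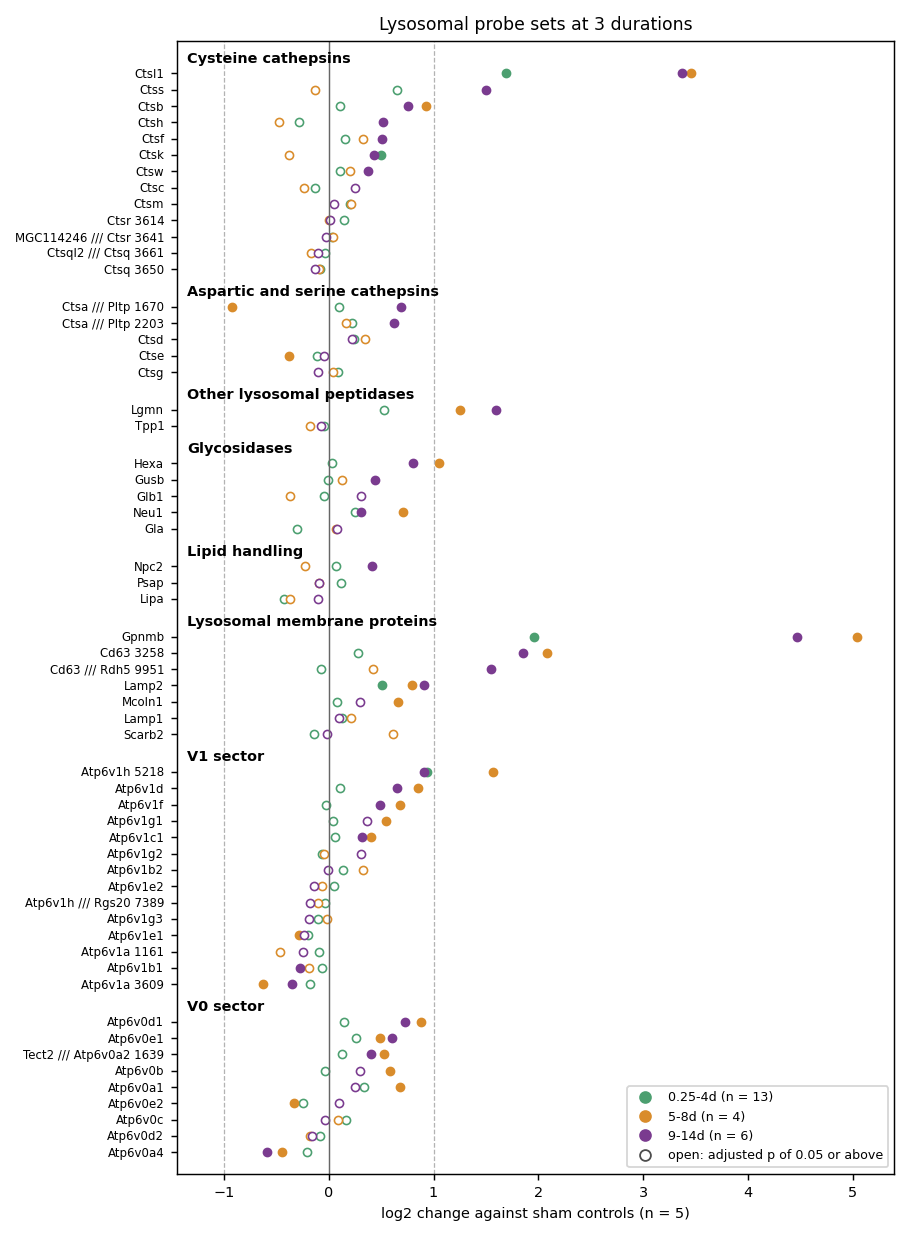
All 58 lysosomal probe sets by role, with the log2 change against the 5 sham controls on the horizontal axis at 0.25-4d (green), 5-8d (orange) and 9-14d (purple). Filled points have an adjusted p below 0.05, dashed lines mark a 2-fold change, and digits after a symbol are the last 4 of the probe set number where a gene has several sets or a set several genes. Gpnmb and Ctsl1 lie apart from the rest at every duration, and no point on the left is both filled and past the dashed line.

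The members with the largest rises were Gpnmb, Ctsl1 and Cd63. Gpnmb is a transmembrane glycoprotein of lysosomes and related organelles, found in macrophages and in melanosomes. Over the 3 durations it changed by 1.96 ± 0.50, 5.04 ± 0.64 and 4.47 ± 0.58, or 3.88-fold, 32.9-fold and 22.2-fold (adjusted p = 0.0249, 1.18e-06 and 7.51e-07). It stood 9th, 2nd and 8th among the 26208 probe sets ordered from the highest change. Ctsl1, cathepsin L, a cysteine endopeptidase that is raised in many forms of muscle atrophy, changed by 1.70 ± 0.24, 3.46 ± 0.31 and 3.37 ± 0.28, of which the first is 3.24-fold and the last 10.3-fold. Its adjusted p-values were 9.29e-05, 1.94e-08 and 4.09e-10. These are the genes that were up-regulated from the first days on.

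Cd63, a tetraspanin of late endosomes and lysosomes, was up-regulated only later. Its set with 32 of 32 probes on the gene changed by 0.28 ± 0.21 at 0.25-4d (adjusted p = 0.546), then by 2.08 ± 0.26 and 1.85 ± 0.24 (adjusted p = 1.13e-06 and 6.64e-07). From 0.25-4d to 5-8d it rose 3.48-fold (log2 difference 1.80 ± 0.22, adjusted p = 7.08e-07). Lgmn, legumain, which cuts after asparagine and processes cathepsins, changed by 0.52 ± 0.18 (adjusted p = 0.102), 1.26 ± 0.23 (adjusted p = 0.000124) and 1.60 ± 0.20 (adjusted p = 6.46e-07). Hexa, the alpha subunit of beta-hexosaminidase, changed by 0.03 ± 0.14, 1.05 ± 0.18 and 0.80 ± 0.16. It was up-regulated at 5-8d (2.07-fold, adjusted p = 5.17e-05) and rose 1.74-fold at 9-14d (adjusted p = 0.000269). Atp6v1h, the regulatory H subunit of the pump, rose at all 3 durations, by 0.93 ± 0.22, 1.57 ± 0.28 and 0.91 ± 0.25. Only at 5-8d did it pass 2-fold (2.97-fold, adjusted p = 0.000115), with folds of 1.91 and 1.88 before and after.

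**Figure D2:**
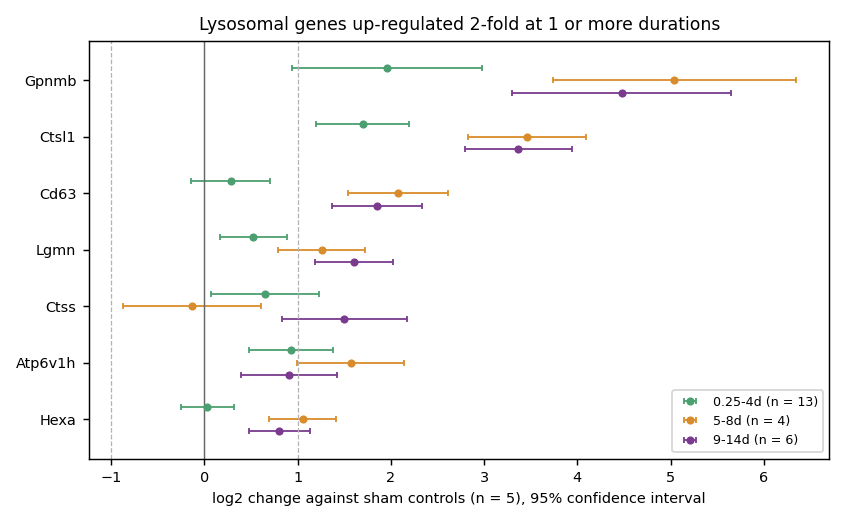
The 7 lysosomal genes up-regulated at 1 or more durations, by probe sets with most probes on the gene. Points are log2 changes against the 5 controls, bars are 95% confidence intervals not adjusted for the number of probe sets, and dashed lines mark a 2-fold change. Gpnmb, Ctsl1, Cd63, Lgmn and Hexa have their lowest value at 0.25-4d, and Ctss has its highest at 9-14d.

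The promoters of Gpnmb, Ctsl1 and Cd63, the genes with the largest rises, are shown. Many lysosomal genes are known to carry the E-box CACGTG, the core of the motif read by TFEB and related factors. Atp6v0d1, Mcoln1 and Lamp1 are shown as pump and membrane genes that hold it. Apart from Gpnmb and Ctsl1, genes that held none are not printed, among them Lgmn, Lamp2, Scarb2, Atp6v1d, Atp6v1f and Atp6v0a1. RefSeq (build GRCr8) held a promoter, 250 bases before the start and 50 after it, for 41 of the 51 genes. Hexa, Ctsb, Psap, Ctsq, Ctsw, Atp6v1h, Atp6v1b2, Atp6v1c1, Atp6v0d2 and Atp6v0e2 had no entry. The 250 bases before the start are printed 5′ to 3′ on the strand of the gene, with each CACGTG in capitals.
Gpnmb, chr4:79340878-79341127, plus strand: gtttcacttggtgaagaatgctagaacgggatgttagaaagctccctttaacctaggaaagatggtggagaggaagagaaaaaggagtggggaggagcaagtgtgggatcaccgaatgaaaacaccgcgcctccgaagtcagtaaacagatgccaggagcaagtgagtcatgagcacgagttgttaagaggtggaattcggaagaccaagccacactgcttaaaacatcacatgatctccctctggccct
Ctsl1 (RefSeq Ctsl), chr17:769854-770103, plus strand: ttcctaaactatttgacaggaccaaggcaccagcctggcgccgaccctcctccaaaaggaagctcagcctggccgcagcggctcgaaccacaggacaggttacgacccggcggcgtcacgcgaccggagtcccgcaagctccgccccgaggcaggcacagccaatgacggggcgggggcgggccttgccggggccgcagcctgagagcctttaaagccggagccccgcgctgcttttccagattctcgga
Cd63, chr7:1921894-1922143, plus strand: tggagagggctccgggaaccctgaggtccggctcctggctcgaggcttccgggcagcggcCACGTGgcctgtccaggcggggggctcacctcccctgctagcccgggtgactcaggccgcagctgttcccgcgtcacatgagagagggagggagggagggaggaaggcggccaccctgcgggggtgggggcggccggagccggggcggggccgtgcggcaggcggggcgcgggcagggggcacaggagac
Atp6v0d1, chr19:50357249-50357498, minus strand: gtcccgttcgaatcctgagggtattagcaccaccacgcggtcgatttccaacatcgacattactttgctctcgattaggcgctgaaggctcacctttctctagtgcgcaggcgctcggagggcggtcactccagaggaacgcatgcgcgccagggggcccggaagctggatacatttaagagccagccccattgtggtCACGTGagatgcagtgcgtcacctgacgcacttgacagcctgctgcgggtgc
Mcoln1, chr12:6358008-6358257, plus strand: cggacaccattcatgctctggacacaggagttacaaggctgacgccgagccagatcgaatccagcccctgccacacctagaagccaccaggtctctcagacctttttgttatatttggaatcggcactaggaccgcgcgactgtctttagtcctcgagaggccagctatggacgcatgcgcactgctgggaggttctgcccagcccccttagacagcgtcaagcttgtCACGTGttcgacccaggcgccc
Lamp1, chr16:83075064-83075313, minus strand: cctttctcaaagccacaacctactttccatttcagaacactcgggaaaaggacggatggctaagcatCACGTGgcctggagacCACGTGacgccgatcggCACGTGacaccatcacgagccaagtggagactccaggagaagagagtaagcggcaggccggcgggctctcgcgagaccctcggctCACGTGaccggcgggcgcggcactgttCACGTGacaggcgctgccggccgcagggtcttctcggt

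CACGTG, which reads the same on both strands, lay within the 300-base window of 8 of the 41 genes, or 19.5%, against 6.42% of 33469 rat promoters. The longer TCACGTG, which contains it, lay on either strand in 6 of the 41, or 14.6%, against 3.2%. Lamp1 held 5 copies, at 183, 167, 150, 65 and 38 bases before the start. Ctsd and Mcoln1 held 2 copies each, and Cd63, Ctsf, Glb1, Atp6v0d1 and Atp6v0e1 held 1. Gpnmb and Ctsl1, with the largest changes, had no CACGTG in this window. Forms of the motif that differ from CACGTG were not searched, so sites of other forms may be present. Lamp1, with the most copies, changed by 0.21 ± 0.10 at 5-8d (adjusted p = 0.134). Among the 14 genes with a promoter that rose at 5-8d, 4 held CACGTG, or 28.6%, and among the other 27 genes 4 did, or 14.8%. Whether the motif goes with the changes was not tested.

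Of the 13 cysteine cathepsin sets, 2 rose at 0.25-4d, 2 at 5-8d and 7 at 9-14d, and none fell at any duration. These shares were 15.4%, 15.4% and 53.8%, against 1.49%, 14.9% and 17.3% of all probe sets, so the share at 5-8d was near that of the array. Ctsb, cathepsin B, followed the later course, with 0.11 ± 0.12, 0.93 ± 0.16 and 0.76 ± 0.14 (adjusted p = 0.745, 6.49e-05 and 0.000157). Other members had no rise at 5-8d. Ctss, cathepsin S, is an endopeptidase of antigen-presenting cells. Its changes were 0.65 ± 0.28 (adjusted p = 0.235), -0.14 ± 0.36 (adjusted p = 0.828) and 1.50 ± 0.33, and it was up-regulated 2.83-fold at 9-14d (adjusted p = 0.000752). Ctsh, cathepsin H, an aminopeptidase, changed by -0.28 ± 0.17, -0.47 ± 0.22 and 0.52 ± 0.20, past the threshold at 9-14d (adjusted p = 0.0421). Ctsk, cathepsin K, the collagen-degrading enzyme of osteoclasts, rose at 0.25-4d by 0.49 ± 0.14 (adjusted p = 0.04). It was at -0.38 ± 0.17 at 5-8d (adjusted p = 0.115) and had risen by 0.43 ± 0.16 at 9-14d (adjusted p = 0.0343).

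Ctsf and Ctsw rose at 9-14d, by 0.51 ± 0.16 and 0.37 ± 0.12 (adjusted p = 0.0123 and 0.02). Ctsc, dipeptidyl peptidase I, passed at no duration, with values from -0.24 to 0.25. The cathepsins M, Q and R, which are known from rodent placenta and lie on chromosome 17 with Ctsl1, also passed at no duration. Their 5 sets lay between -0.17 and 0.21, and Ctsr (10793614) was at 0.01 ± 0.13 at 9-14d.

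Of the 4 aspartic and serine cathepsins, Ctsa alone had risen at 9-14d. Ctsa, cathepsin A, which protects beta-galactosidase and neuraminidase in a complex, changed by 0.22 ± 0.11, 0.17 ± 0.14 and 0.62 ± 0.13 in its set with 34 of 34 probes on the gene (adjusted p = 0.000449 at 9-14d). The set mostly on Pltp, a phospholipid transfer protein, moved otherwise, with 0.10 ± 0.22, -0.93 ± 0.28 (adjusted p = 0.0146) and 0.69 ± 0.25 (adjusted p = 0.0349). Ctsd, the main lysosomal aspartic protease, changed by 0.24 ± 0.13, 0.34 ± 0.17 and 0.22 ± 0.16, with adjusted p-values of 0.394, 0.151 and 0.265. Ctse fell at 5-8d by 0.38 on the log2 scale (SE 0.12, adjusted p = 0.0164) and was at -0.04 ± 0.11 at 9-14d. Ctsg, a protease of neutrophil granules, lay between -0.11 and 0.09. Tpp1, tripeptidyl peptidase, lay between -0.18 and -0.05 and passed at no duration.

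The glycosidases did not move together. Neu1, which removes sialic acid, rose at 5-8d by 0.71 ± 0.13 (adjusted p = 0.000104) and stood at 0.30 ± 0.11 at 9-14d (adjusted p = 0.0379). Gusb, beta-glucuronidase, passed only at 9-14d, with 0.45 ± 0.13 (adjusted p = 0.0102), after -0.01 ± 0.12 and 0.13 ± 0.15. Glb1, beta-galactosidase, passed at no duration, with -0.05 ± 0.15, -0.37 ± 0.19 and 0.31 ± 0.17. Gla, alpha-galactosidase A, also passed at none and was at 0.08 ± 0.14 at 9-14d. Among the lipid handling genes, Npc2, which carries cholesterol out of the lysosome, rose at 9-14d by 0.41 ± 0.16 (adjusted p = 0.0422). Psap, the precursor of the saposins that activate sphingolipid hydrolases, lay between -0.09 and 0.11. Lipa, acid lipase, was at -0.43 ± 0.20, -0.37 ± 0.25 and -0.10 ± 0.22, and none of these values passed.

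Lamp1 and Lamp2 are the most abundant proteins of the lysosomal membrane, and Lamp2 alone of the pair rose. Lamp2, which also serves in chaperone-mediated autophagy, rose at all 3 durations, by 0.51 ± 0.08, 0.80 ± 0.11 and 0.91 ± 0.10 (adjusted p = 0.000595, 2.78e-06 and 2.56e-08). Its largest fold was 1.88. Lamp1 was at 0.13 ± 0.08, 0.21 ± 0.10 and 0.10 ± 0.09 and did not pass. At 9-14d the 95% confidence interval was 0.72 to 1.11 for Lamp2 and -0.09 to 0.28 for Lamp1. Mcoln1, the calcium channel TRPML1, rose at 5-8d by 0.66 ± 0.14 (adjusted p = 0.000519) and was at 0.30 ± 0.12 at 9-14d (adjusted p = 0.0613, or 0.0225 once each comparison was centred on its median). Scarb2, which delivers glucocerebrosidase to the lysosome, passed at no duration against the controls, with -0.14 ± 0.20, 0.61 ± 0.26 and -0.01 ± 0.23. It did rise from 0.25-4d to 5-8d, by 0.75 ± 0.22 (adjusted p = 0.0136).

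The subunits of the proton pump split into those that rose and those that did not. Of 23 probe sets, 1 rose at 0.25-4d, 10 at 5-8d and 7 at 9-14d. These were 4.35%, 43.5% and 30.4% of the pump sets, against 1.49%, 14.9% and 17.3% of all. At 5-8d 4 fell, or 17.4% against 11.4%, and at 9-14d 3 fell, or 13.0% against 18.2%. Once each comparison was centred on its median, 2 of the 4 and 2 of the 3 falls no longer passed, and Atp6v1g1, Atp6v1g2 and Atp6v0b passed as rises at 9-14d. In the V1 sector at 5-8d, next to Atp6v1h, the central stalk subunits Atp6v1d and Atp6v1f rose by 0.85 ± 0.20 and 0.68 ± 0.15 (adjusted p = 0.00186 and 0.000981). Atp6v1g1 and Atp6v1c1 rose by 0.55 ± 0.18 and 0.40 ± 0.12 (adjusted p = 0.0194 and 0.0163), while Atp6v1e1 fell (values below). None of the sets for the catalytic ring rose. Both sets of Atp6v1a, the ATP-splitting A subunit, were below the controls at 5-8d. The set on chromosome 2, which the annotation marks as cross-hybridising, was at -0.62 ± 0.14 (adjusted p = 0.00123), and the set on chromosome 11, with 8 probes, at -0.47 ± 0.19 (adjusted p = 0.0791). At 9-14d the former was at -0.35 ± 0.13 (adjusted p = 0.0325, or 0.0957 after centring).

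Other V1 subunits had small values. Atp6v1b2, the widely expressed B subunit, was at 0.14 ± 0.15, 0.32 ± 0.19 and -0.01 ± 0.18 and did not pass. Atp6v1b1, the B subunit of kidney and inner ear, fell at 9-14d by 0.27 on the log2 scale (SE 0.09, adjusted p = 0.0188, or 0.087 after centring). Atp6v1e1, the widely expressed E subunit, fell at 5-8d by 0.28 (SE 0.11, adjusted p = 0.0465, or 0.0961 after centring). Atp6v1g2, Atp6v1g3 and Atp6v1e2, known mainly from brain, kidney and testis in that order, passed at no duration. After centring, Atp6v1g2 did pass at 9-14d, where it was at 0.31 ± 0.13 (adjusted p = 0.0543, or 0.0201 after centring).

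In the V0 sector, isoforms of the same subunit had different values. Atp6v0d1 rose by 0.88 ± 0.19 at 5-8d and 0.73 ± 0.17 at 9-14d (adjusted p = 0.00102 and 0.00186), while Atp6v0d2, known from osteoclasts and kidney, lay between -0.18 and -0.08. Atp6v0e1 rose by 0.49 ± 0.10 and 0.60 ± 0.09 (adjusted p = 0.000804 and 1.47e-05). Atp6v0e2, its isoform of the nervous system, fell at 5-8d by 0.33 (SE 0.12, adjusted p = 0.0451, or 0.0848 after centring) and was at 0.10 ± 0.11 at 9-14d. Of the a subunits, which anchor the pump, Atp6v0a1 rose at 5-8d by 0.68 ± 0.18 (adjusted p = 0.00493) and stood at 0.25 ± 0.16 at 9-14d (adjusted p = 0.23). The set shared by Atp6v0a2 and Tect2 rose by 0.53 ± 0.12 and 0.41 ± 0.11. Atp6v0a4, the kidney isoform, fell at both later durations, by 0.45 (SE 0.13, adjusted p = 0.0114) and 0.59 (SE 0.12, adjusted p = 0.00036). As levels were not analysed, whether the sets of Atp6v0a4, Atp6v1b1 and Ctse lie above the array background is not known. Atp6v0b rose at 5-8d by 0.58 ± 0.15 (adjusted p = 0.00398), and Atp6v0c, a subunit of the proton-carrying ring, passed at no duration and was at -0.03 ± 0.12 at 9-14d.

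**Figure D3:**
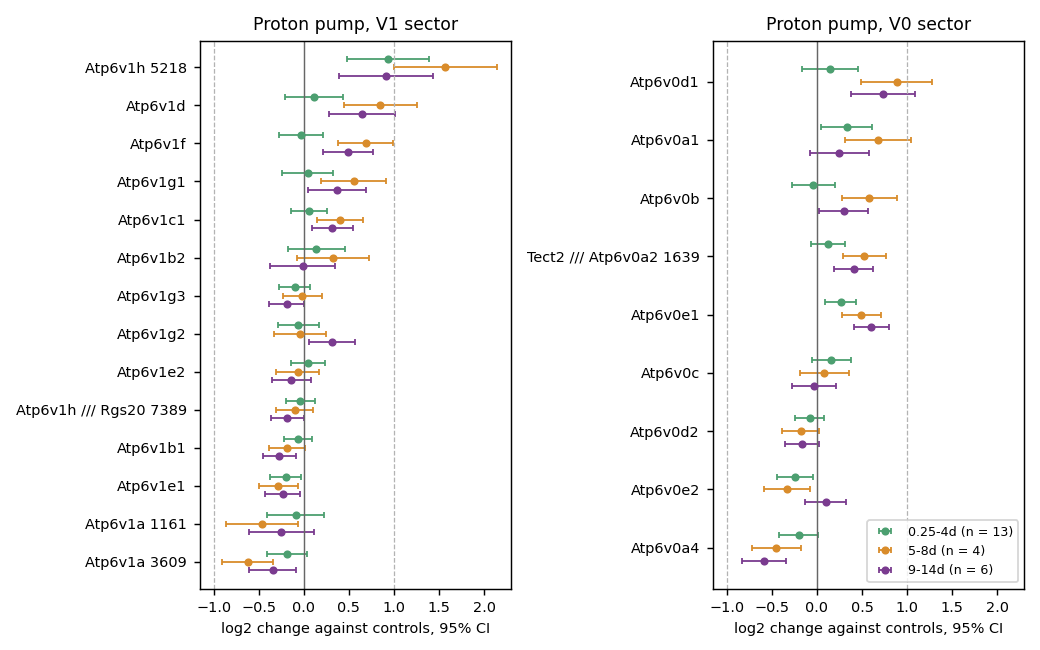
Probe sets of the V1 sector (left) and V0 sector (right) of the proton pump, ordered by the value at 5-8d. Points are log2 changes against the 5 controls and bars are 95% confidence intervals not adjusted for the number of probe sets. Of the sets with most probes on the gene, 9 of 13 in V1 and 5 of 8 in V0 lie lower at 9-14d than at 5-8d. Over the array, 11120 of 26208 probe sets had a difference above 0 between these durations. No pump set passed in this comparison.

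Durations were compared next. From 0.25-4d to 5-8d, 18 members rose, or 31.0% against 13.6% of all probe sets, and 3 fell, or 5.17% against 7.64%. A difference of at least 2-fold was seen in 5 of the 58 members, against 2.68% of all probe sets. Gpnmb rose a further 8.46-fold (log2 difference 3.08 ± 0.54, adjusted p = 0.000108). The log2 difference was 1.76 ± 0.26 for Ctsl1 (adjusted p = 1.19e-05) and 1.02 ± 0.15 for Hexa (adjusted p = 9.56e-06). Cd63 is given above, and the fifth was the set mostly on Pltp, which fell by 1.02 on the log2 scale (SE 0.24, adjusted p = 0.00224). Ctsk fell by 0.87 (SE 0.15, adjusted p = 7.09e-05), the third member that fell being the cross-hybridising Atp6v1a set, by 0.44 (SE 0.12). From 0.25-4d to 9-14d, 28 members rose, or 48.3% against 18.1%, and 4 fell, or 6.90% against 17.4%. Of the 58 members, 5 were past 2-fold, against 3.32% of all probe sets.

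Between 5-8d and 9-14d few probe sets of the array differed, and 5 of the 58 members rose, or 8.62% against 0.305% of all. No member fell, against 0.103%, and 3 of the 5 passed 2-fold, against 0.21% in either direction. Ctss was 3.11-fold higher at 9-14d (log2 difference 1.64 ± 0.35, adjusted p = 0.0372), Ctsh 1.99-fold (0.99 ± 0.21, adjusted p = 0.0372) and Ctsk 1.75-fold (0.81 ± 0.17, adjusted p = 0.0334). The other pair were the sets mostly on Pltp (1.61 ± 0.27, adjusted p = 0.0072) and Rdh5 (1.13 ± 0.26, adjusted p = 0.0491). At an adjusted p below 0.01, the Pltp set alone of the 5 passed. With the residual degrees of freedom alone it was again the only one (adjusted p = 0.0247), and Ctss, Ctsh and Ctsk were at 0.0796, 0.0782 and 0.0709. Ctsk and Ctss are neighbours on chromosome 2 of build RGSC3.4, at chr2:190394854-190405668 and chr2:190422634-190466877, 17.0 kb apart and on the plus strand. The genes with the large early and middle rises did not pass between these durations. The difference was -0.56 ± 0.61 for Gpnmb (95% confidence interval -1.82 to 0.69), -0.09 ± 0.30 for Ctsl1 (-0.70 to 0.51) and -0.23 ± 0.25 for Cd63 (-0.74 to 0.29). No pump subunit passed, with the difference at -0.66 ± 0.27 for Atp6v1h (adjusted p = 0.273).

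Macrophages are rich in lysosomes, and their markers are given beside the values of Ctss, Ctsh and Ctsk. Of 15 probe sets for macrophage markers, 1 rose at 0.25-4d, none at 5-8d and 11 at 9-14d. These were 6.67%, 0% and 73.3% of the sets, against 1.49%, 14.9% and 17.3% of all probe sets. At 9-14d the median log2 change of the markers was 1.21 and the range 0.28 to 1.80. At 5-8d the range was -0.76 to 0.47 (median -0.09). Between 5-8d and 9-14d all 15 had a difference above 0, from 0.74 to 1.80. Of these, 2 passed the threshold, or 13.3% against 0.305% of all probe sets. Lyz2, lysozyme, and Tyrobp, a signalling adaptor, were the highest at 9-14d, with log2 changes of 1.80 and 1.62 (adjusted p = 0.00102 and 0.00152). The 4 that did not pass at 9-14d were Cd14, C1qa, C1qb and C1qc. The part of macrophage RNA in the cathepsin values was not tested. Of 11 probe sets for fast fibre proteins and other muscle markers, 3 fell at 5-8d and 7 at 9-14d, against 11.4% and 18.2% of all probe sets. Within this short list, which leaves out other fibre genes, Actn3 (-1.31) and the set of Myh2 and Myh1 (-0.69) had the lowest values at 9-14d, and Des rose at 5-8d (0.22).

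**Figure D4:**
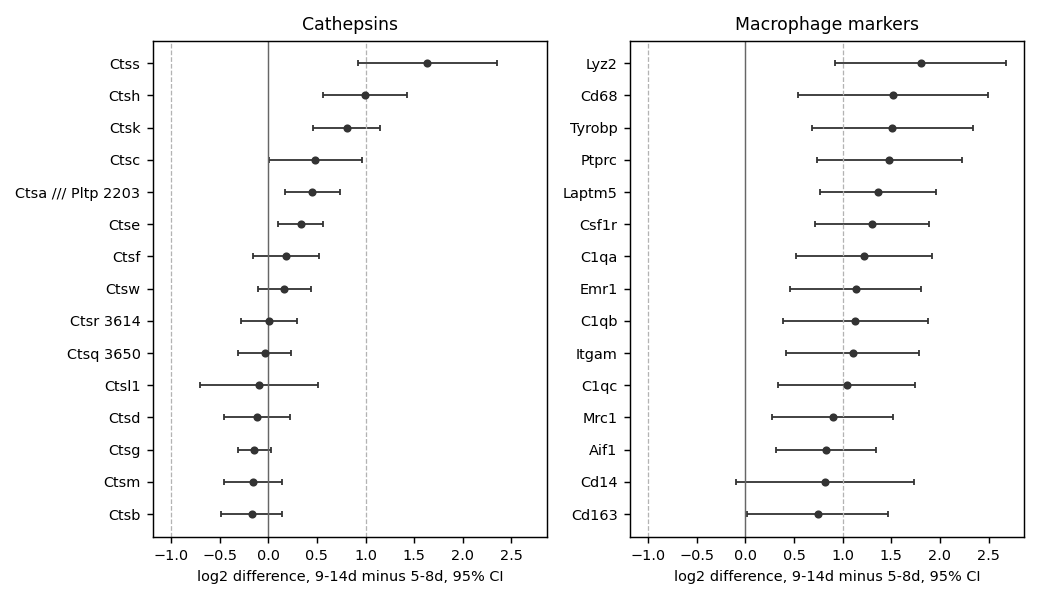
Log2 differences of 9-14d (n = 6) minus 5-8d (n = 4) for cathepsin sets with most probes on the gene (left) and macrophage markers (right), with 95% confidence intervals not adjusted for the number of probe sets. Ctss, Ctsh and Ctsk head the cathepsins at 1.64, 0.99 and 0.81, Ctsl1 and Ctsb lie near 0, and the 15 markers lie between 0.74 and 1.80. Ctss, Ctsh and Ctsk did not pass at an adjusted p below 0.01.

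Genes around these members were counted from lists of symbols. Of 31 probe sets for other lysosomal enzymes and membrane proteins, 10 rose and 6 fell at 5-8d, and 13 rose and 4 fell at 9-14d. The rises were 32.3% and 41.9% of the sets, against 14.9% and 17.3% of all, and the falls 19.4% and 12.9%, against 11.4% and 18.2%. One of the falls at 9-14d was the set with 2 of 25 probes on Idua. Fuca1, alpha-fucosidase, and Slc17a5, the sialic acid exporter, rose most at 9-14d, by 1.51 and 1.42. Slc17a5 was already up at 0.25-4d, by 1.10 (adjusted p = 0.000127). Ppt2, a thioesterase, and Galns, a sulfatase, fell most, to -1.14 and -0.73. Of 12 sets for enzyme sorting, 5 rose and none fell at either later duration, or 41.7% against 14.9% and 17.3% of all. One of the rises at 9-14d was the set of Mrps7 and Gga3, with 2 of 25 probes on Gga3, whose own set (34 of 34 probes) was at 0.15 (adjusted p = 0.385). Sort1, sortilin, was at 1.24 at 9-14d, and the sets of M6pr, the cation-dependent mannose 6-phosphate receptor, at 0.73 and 0.59.

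Cystatins inhibit cysteine cathepsins. Of 5 probe sets for them, 3 rose at each later duration, or 60% against 14.9% and 17.3% of all probe sets. At 5-8d 1 fell, or 20% against 11.4%, and at 9-14d none fell. Cst7, cystatin F, which reaches lysosomes of immune cells, changed by 0.53 (adjusted p = 0.432), 3.34 and 4.87, and Cstb, the cytosolic stefin B, by 0.42, 1.26 and 1.15. Of the pump's accessory proteins, Atp6ap2, the prorenin receptor, rose by 0.52 and 0.60 at 5-8d and 9-14d (adjusted p = 0.00137 and 6.53e-05). Atp6ap1 passed at no duration, and Tcirg1, the a3 subunit of osteoclasts and lysosomes, was at -0.46 at 5-8d (adjusted p = 0.149) and -0.02 at 9-14d. Atp6ap1l fell by 0.37 and 0.29. Among the E-box factors that drive lysosomal genes, Tfeb fell at 5-8d by 0.38 (adjusted p = 0.0436) and was at -0.26 at 9-14d (adjusted p = 0.108). Mitf was at -0.02 and -0.21, past at neither, and Tfec, known from macrophages, rose at 9-14d by 0.99 (adjusted p = 0.0121). Tfe3 was not analysed here.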

How the data were processed

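Per the paper and the labels, the authors hybridised RNA of each rat to an array, summarised the arrays by robust multi-array average (RMA) and compared each duration with the controls in limma, by moderated statistics of 1 linear model with Benjamini-Hochberg adjustment. The deposited table holds the log2 ratio and the adjusted p-value of each comparison for 26208 probe sets, used here as deposited. Its first line calls the log2 values lowess normalised, whereas the paper names RMA. These columns are the authors' own comparisons. The table gives no value per array, so the number of rats limits the precision.

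The adjustment of the deposited p-values was undone, and the moderated statistic was solved at 28.3 degrees of freedom (24 residual, 4.26 prior), the number at which a probe set's within-group SD comes out alike from its 3 comparisons. The SDs carry an error bound of at most 0.299%. Adjusted p-values computed again changed 0, 0 and 1 calls at the 3 durations. SEs, 95% confidence intervals and 3 comparisons between durations followed from the SD and the numbers of rats, with adjustment within each comparison. Calls need a 2-fold change and an adjusted p below 0.05.

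The members and gene lists were chosen with earlier results of these data known. By rule, values are given for each member gene called or fallen at any duration, each of the named lysosomal genes, the largest and smallest change at 9-14d per role, every regulator and accessory protein, and at most 4 genes of other lists. Other cathepsins and pump subunits, and the grouping by place in the pump, were named after their values were seen. Probes per gene were counted from the table's transcript assignments and promoters were searched in RefSeq (GRCr8). Python 3.11.15, numpy 2.4.6, scipy 1.17.1, pandas 2.3.3 and matplotlib 3.10.9 were used, and the code was tested on simulated data.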

Additional observations from a re-analysis of the deposited data

Results flagged for a closer look

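Some members changed differently between durations, by at least 2-fold and with an adjusted p below 0.05 for the difference itself. From 0.25-4d to 5-8d the log2 differences were 3.08 for Gpnmb, 1.80 for Cd63 (10893258), 1.76 for Ctsl1, 1.02 for Hexa and -1.02 for the set of Ctsa and Pltp (10851670). From 5-8d to 9-14d they were 1.64 for Ctss, 1.61 for the set of Ctsa and Pltp, and 1.13 for the set of Cd63 and Rdh5 (10899951). From 0.25-4d to 9-14d they were 2.52 for Gpnmb, 1.67 for Ctsl1, 1.62 for the set of Cd63 and Rdh5, 1.57 for Cd63 (10893258) and 1.08 for Lgmn. The set of Ctsa and Pltp has 1 of 32 probes on Ctsa, and that of Cd63 and Rdh5 has 1 of 27 on Cd63. A search for outlying rats was not run, since single arrays were not analysed here.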

How the results depend on the processing

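Leaving out each replicate in turn was not run, because values of single arrays were not analysed here. No paired analysis was possible because the labels give the rats no shared replicate numbers and the table holds no single arrays. Without the fold minimum, 5, 19 and 25 members were higher than the controls at the 3 durations in place of 2, 6 and 6, and 6 and 3 were lower at 5-8d and 9-14d in place of 0. Between durations, 18 were higher and 3 lower at 5-8d against 0.25-4d, 5 higher at 9-14d against 5-8d, and 28 higher and 4 lower at 9-14d against 0.25-4d. With an adjusted p below 0.01, 1 member was called at 0.25-4d and 1 at 9-14d against 5-8d. The set on Pltp was no longer called lower at 5-8d against 0.25-4d (0 calls) after centring each comparison on its median, among sets of 1 gene symbol, or without the 6 sets mostly on another gene, an alternative chosen after seeing the data. The 3 calls at 9-14d against 5-8d became 1, that of Ctss, among sets of 1 symbol and without the 6 sets. With residual degrees of freedom alone they also became 1, but this was the set on Pltp, and Ctss was no longer called. Adjustment over the comparisons together or over sets with a symbol, unique sets and distinct genes left the 12 counts within 1.5 times. Of 174 single log2 changes, centring turned the sign of 9, none past the threshold, to 0.00477 for Gusb at 0.25-4d, 0.000261 for Atp6v1g2 and 0.0234 for Atp6v1g3 at 5-8d, and at 9-14d 0.0477 for the set of MGC114246 and Ctsr, 0.0275 for Ctse, 0.000493 for Tpp1, 0.0591 for Scarb2, 0.0612 for Atp6v1b2 and 0.0367 for Atp6v0c. Another 4 lost and 4 gained the threshold.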
